A study of Rattus norvegicus with 2 samples.

Results

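Glucocorticoid signalling genes were examined in the lumbar spinal cord (SC, segments L4 to L6) of rats with and without a nerve injury. They were the 2 corticosteroid receptors Nr3c1 and Nr3c2, the enzyme Hsd11b1, and 7 genes that are classical targets of glucocorticoids, Fkbp5, Zbtb16, Tsc22d3, Sgk1, Sult1a1, Klf9 and Per1. For each gene, the probe set with the highest mean over both arrays was taken among those that the platform annotation ties to exactly 1 symbol, and all 10 were found among the 18166 genes measured, each with a single probe set. The animals were adult male Sprague-Dawley rats, sampled 10 days after surgery. Rats of the chronic constriction injury (CCI) group, called the model in the sample title, carried 4 loose ligatures around the left sciatic nerve. The nerve of Sham rats was exposed without any ligature, so neither group is an unoperated control. For each group, the RNA of 3 rats was mixed and measured on 1 one-colour array, the Affymetrix Rat Gene 2.0 ST, whose probe sets each join several short probes of a transcript. There was thus 1 value per gene and group, with no replicate error and no test, and the spread between rats is unknown. The constriction was on 1 side of the body, and the labels do not say which side of the cord was taken.

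Glucocorticoids, of which corticosterone is the main one in rats, enter cells and bind the glucocorticoid receptor, which is held ready in the cytoplasm by the chaperone Hsp90. The bound receptor moves to the nucleus, sits on DNA elements made of paired half-sites and raises or represses nearby genes. Corticosterone also binds the mineralocorticoid receptor, with higher affinity, and in nervous tissue both receptors are found in neurons and glia. The hormone is released in a daily rhythm and after stress, and its best known target genes limit inflammation, adjust metabolism, feed back on the receptor or belong to the circadian clock.

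The 10 genes were chosen by name with their differences between CCI and Sham on these arrays in view, so the values describe the genes and support nothing further. In the CCI pool, 9 of the 10 were lower than in Sham, against 52.4% of all genes, and 1, Nr3c1, was higher. The median difference, as CCI minus Sham on the log2 scale, was -0.43, against -0.01 over all genes and -0.04 over the 9083 genes at or above the median level of 5.83, a range that held all 10. Lower by more than 1.5-fold, the threshold of the study, were Zbtb16 and Fkbp5, or 2 of 10, against 1.14% of all genes. A smaller threshold of 0.32 on the log2 scale was passed downwards by 6 of 10, against 8.65% of all genes. None of the 10 was higher past either threshold, against 1.64% and 8.01% of all genes. Of the 9083 genes at or above the median level, 5295 were below Sham. Lower and higher past 1.5-fold were 79 and 91 of these 9083, and past 0.32 they were 790 and 378. All 10 were above a rough chemosensory background level on both arrays, which stood at 4.44 in Sham and 4.36 in CCI. It was taken as the 95th percentile of 1360 olfactory, vomeronasal and trace amine receptor genes, most of which are not known to act in the SC. In tissue RNA, fewer cells of a type and less RNA per cell cannot be told apart.

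**Figure D1:**
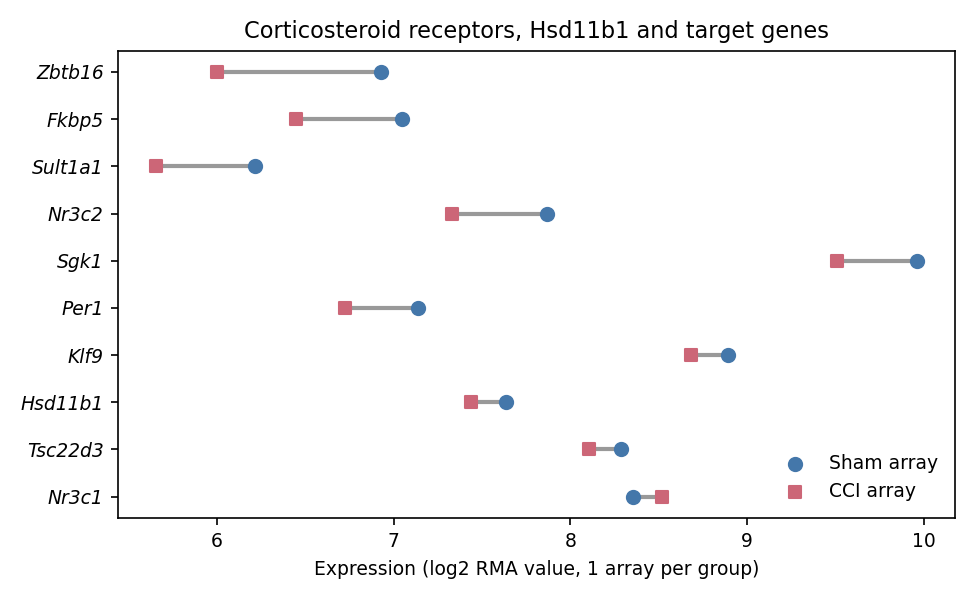
Expression of the 10 genes on the Sham array (circles) and the CCI array (squares), as log2 RMA values on the horizontal axis, 1 array per group of 3 pooled rats, ordered by the difference. The CCI value lies to the left of the Sham value for 9 genes, furthest for Zbtb16, and to the right for Nr3c1 at the bottom.

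Nr3c1, which encodes the glucocorticoid receptor, was at 8.36 in Sham and 8.52 in CCI on the log2 scale. The CCI value was the higher one, by 1.12-fold, and of the 500 genes nearest to Nr3c1 in mean level, 68 differed upwards by more. Nr3c2, which encodes the mineralocorticoid receptor, was at 7.87 in Sham and 7.33 in CCI, 1.45-fold lower. Among its 500 nearest genes in level, 7 lay lower. The receptor pair thus differed in opposite directions, and the difference of Nr3c1 exceeded that of Nr3c2 by 0.70 on the log2 scale. Probe sets of different genes have no common scale of level, so which receptor is the more abundant cannot be read from these values.

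Hsd11b1 encodes an enzyme that regenerates active corticosterone from its inert oxidised form inside the cell. It was at 7.64 in Sham and 7.44 in CCI, 1.15-fold lower, and 110 of its 500 nearest genes lay lower. H6pd, the product of which supplies the cofactor for this reaction in the endoplasmic reticulum, was at 6.10 and 6.06. Hsd11b2, the enzyme that works in the opposite direction and protects the mineralocorticoid receptor in kidney, was at 4.61 and 4.51, just above the chemosensory background level on both arrays. The difference of Hsd11b1 was thus small beside those of most of the target genes, and smaller still in H6pd.

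Zbtb16, a zinc finger transcriptional repressor that glucocorticoids induce strongly in many cells, differed the most of the 10. It was at 6.926 in Sham and 6.001 in CCI, 1.90-fold lower, so that the CCI value was 52.7% of the Sham value on the linear scale. It ranked 18th from the lowest among all 18166 differences, and 2 of its 500 nearest genes in level lay lower. Fkbp5, a cochaperone that lowers the affinity of the glucocorticoid receptor for hormone and closes a feedback loop, was at 7.05 and 6.45, 1.52-fold lower, with 8 of its 500 nearest genes lower. It lay just past the threshold, and after subtraction of the trend of the difference with level it was at -0.55, short of it. Just short of the threshold without any correction was Sult1a1, a phenol sulfotransferase that glucocorticoids induce in rat liver, at 6.21 and 5.66, or 1.47-fold lower.

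The other targets differed by less. Sgk1, a kinase induced by both receptors that controls ion channels and transporters, was at 9.96 in Sham and 9.51 in CCI, 1.37-fold lower, with 7 of its 500 nearest genes lower. Per1, a repressor in the circadian clock, was at 7.14 and 6.72, 1.33-fold lower, with 21 lower. The CCI array was thus the lower one for both genes, by about as much. Klf9, a Krüppel-like transcription factor that mediates hormone effects on neurons, was at 8.89 and 8.68, 1.16-fold lower. Tsc22d3, which encodes the anti-inflammatory leucine zipper protein GILZ, was at 8.29 and 8.11, 1.14-fold lower, with 120 of its 500 nearest genes lower. Although both are regarded as standard readouts of the hormone, Klf9 and Tsc22d3 lay among the more weakly differing genes of the 10, beside Hsd11b1 and Nr3c1.

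**Figure D2:**
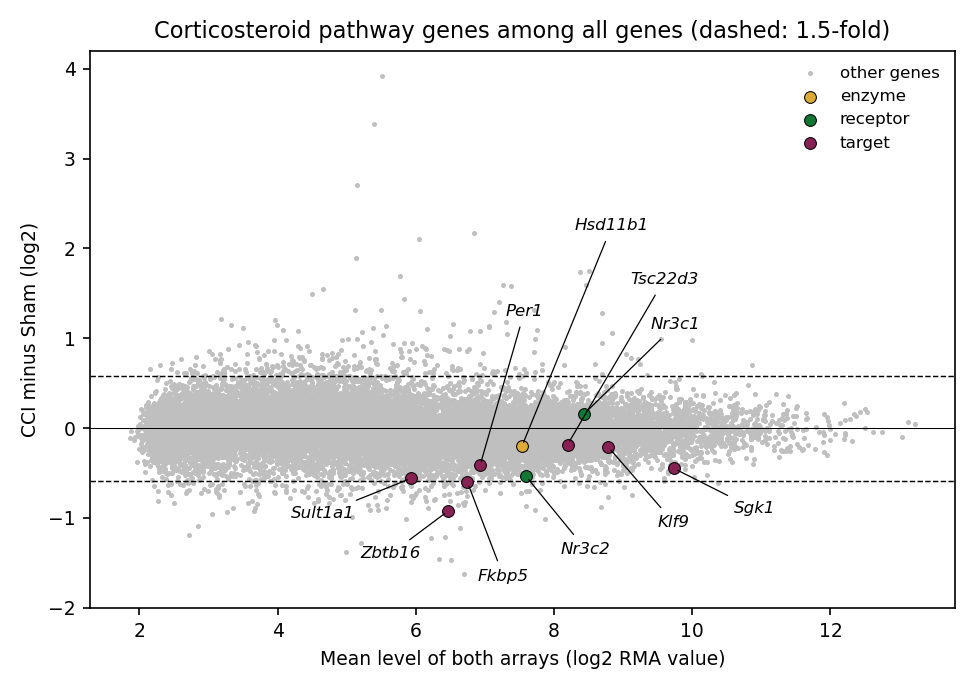
Difference between CCI and Sham (log2, vertical axis) against the mean level of both arrays (log2 RMA value, horizontal axis) for all 18166 genes, with receptors, enzyme and targets in colour and the 1.5-fold threshold dashed. Zbtb16 and Fkbp5 lie below the lower dashed line, Sult1a1 and Nr3c2 just above it, and Nr3c1 above 0.

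Promoter sequence was looked up for these genes because most of them are known to be driven by the receptor from DNA elements. RefSeq promoters of the GRCr8 assembly matched 7 of the 10 by symbol, with 12 annotated starts. Nr3c2, Hsd11b1 and Zbtb16 were not matched. The 250 bases before each start were searched on both strands for the full glucocorticoid response element, which is the half-site AGAACA, a gap of 3 bases and the same half-site on the other strand, for the core of that element, ACANNNTGT, which lies within the full element, and for the half-site alone. The full element was in none of the 12 windows and in 0.012% of all 33469 rat windows of this length. The core was found in 1 window, at Tsc22d3, against 5.81% of all windows, and the half-site in 1 window, at Sult1a1, against 17.5%. These matches are letters in a window and not evidence of binding, and a window without a match says nothing of elements further away, such as those known in introns of human FKBP5. The windows shown are those of Sult1a1, with the half-site in capitals, of the second of the 3 starts of Tsc22d3, with the core in capitals, of Fkbp5, with its 3 GC boxes (GGGCGG) in capitals, and of Per1, in which none of the motifs searched was found. Each is read 5′ to 3′ in the direction of the gene and ends at the base before the start.
Sult1a1, chr1:190706113-190706362, minus strand: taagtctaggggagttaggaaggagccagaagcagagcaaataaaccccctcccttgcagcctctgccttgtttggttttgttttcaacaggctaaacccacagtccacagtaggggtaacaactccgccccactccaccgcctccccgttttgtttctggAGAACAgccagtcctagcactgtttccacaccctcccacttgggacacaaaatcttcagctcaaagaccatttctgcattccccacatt
Tsc22d3, chrX:109065431-109065680, minus strand: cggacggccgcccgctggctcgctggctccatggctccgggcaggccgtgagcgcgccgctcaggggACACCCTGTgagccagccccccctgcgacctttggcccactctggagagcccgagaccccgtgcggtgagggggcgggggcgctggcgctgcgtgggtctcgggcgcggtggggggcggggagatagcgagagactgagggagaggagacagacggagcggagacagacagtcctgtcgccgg
Fkbp5, chr20:6543556-6543805, minus strand: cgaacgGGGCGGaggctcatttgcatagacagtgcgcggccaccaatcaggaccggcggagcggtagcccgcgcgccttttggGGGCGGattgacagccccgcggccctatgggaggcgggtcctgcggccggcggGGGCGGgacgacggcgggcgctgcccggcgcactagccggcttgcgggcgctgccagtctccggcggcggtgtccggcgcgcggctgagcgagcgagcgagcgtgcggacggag
Per1, chr10:54304126-54304375, plus strand: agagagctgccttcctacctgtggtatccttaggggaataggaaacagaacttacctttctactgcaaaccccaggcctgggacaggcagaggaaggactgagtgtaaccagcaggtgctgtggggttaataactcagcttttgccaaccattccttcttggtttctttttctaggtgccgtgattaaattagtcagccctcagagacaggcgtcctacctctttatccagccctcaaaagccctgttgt

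The 4 windows are unlike in composition, with 76.0% G and C at Fkbp5 and 74.4% at Tsc22d3, against 51.2% at Sult1a1 and 49.2% at Per1. The half-site of Sult1a1 began 89 bases before the start, and the core at Tsc22d3 began 183 bases before it. The GC box was in 8 of the 12 windows, those of 5 of the 7 genes, and in 30.5% of all windows. The cAMP response element TGACGTCA and the E-box CACGTG, which serve activity-driven and clock-driven transcription, were in none of the 12, against 1.59% and 5.59% of all windows. The part of the former given by TGACG was in 1 window each of Klf9 and Tsc22d3, against 18.2%. The genes that were furthest below Sham and have a window, Fkbp5 and Sult1a1, thus had no motif of the receptor in common here.

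Next, 34 other genes that glucocorticoids are known to raise in one tissue or another were taken, 31 of them measured. In the CCI pool 24 were below Sham and 7 above, against 52.4% of all genes below, with a median difference of -0.09. Lower past 1.5-fold were 4 of 31, against 1.14% of all genes, and none was higher past it. The list was drawn up when Dusp1 and Anxa1 were already known to be lower in these data, so it is not independent of them. Dusp1, the phosphatase through which glucocorticoids restrain MAP kinases, was at 9.12 in Sham and 8.24 in CCI, 1.83-fold lower, below all of its 500 nearest genes. Mfsd2a, a lipid transporter of the endothelial barrier, was at 8.14 and 7.45, 1.62-fold lower. Mt1, a metallothionein that binds zinc and copper, was at 8.91 and 8.26, 1.58-fold lower, and its dimmer probe set was at 4.61 and 4.29. Anxa1, at 4.01 and 3.38, did not reach the background level on either array.

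Most of the other targets lay within 0.32 of Sham on the log2 scale. Bcl6 and Per2 were lower past 0.32 on the log2 scale, which 6 of 31 passed downwards, against 8.65% of all genes. The single gene above it was Cdkn1c, a cell cycle inhibitor, at 6.83 in Sham and 7.26 in CCI, 1.35-fold higher. Commonly used readouts such as Ddit4, at 7.39 and 7.37, Pdk4, at 6.76 and 6.67, and Fam107a, at 8.89 and 8.94, were almost level, and were named after their values were seen, as was Bcl6. The median of this longer list lay nearer to that of all genes than to the -0.43 of the 10 genes. For the 18 other targets at or above the median level it was -0.15, against -0.04 for all genes in that range.

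**Figure D3:**
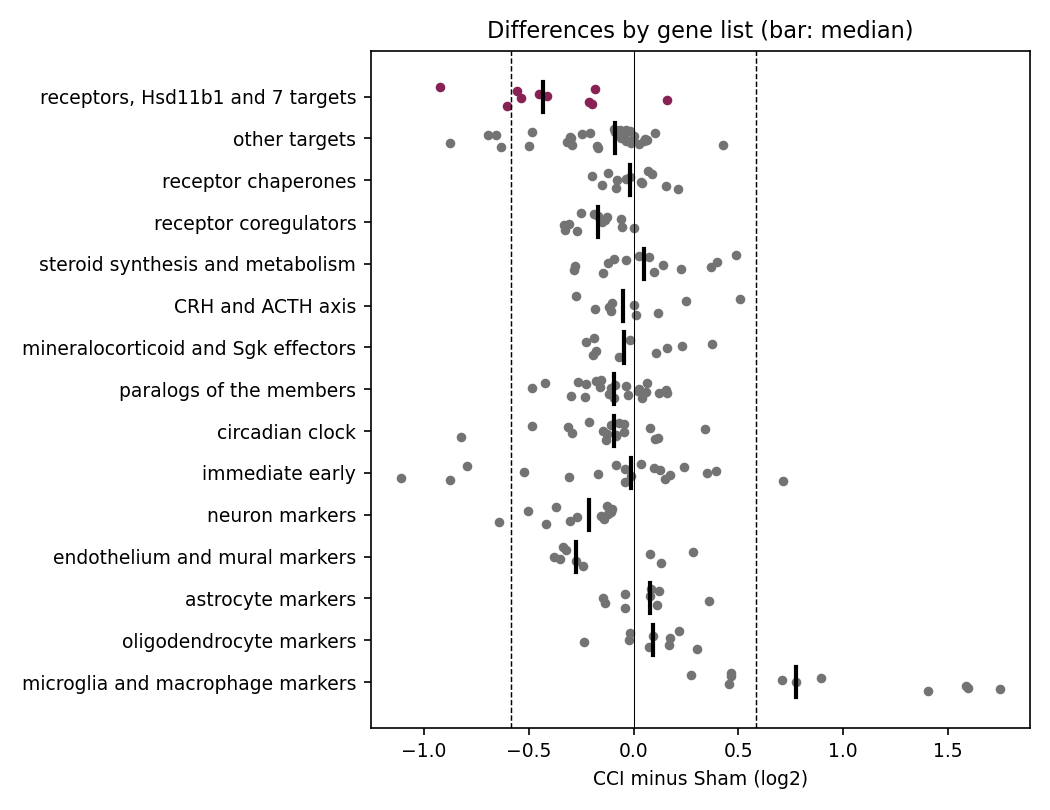
Differences between CCI and Sham (log2, horizontal axis) of the measured genes in each list, 1 point per gene, with the median as a bar and the 1.5-fold threshold dashed. The 10 genes centre on -0.43, the other targets on -0.09, neuron markers on -0.21 and microglia and macrophage markers on 0.77.

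Of the machinery around the receptors, the chaperones were nearly level and most coregulators were slightly lower in the CCI pool. Of 13 measured chaperones and cochaperones, 7 were below Sham and 6 above, with a median of -0.02 and none past 0.32 on the log2 scale in either direction. Ppp5c, a phosphatase of the receptor complex, was furthest below Sham, at 9.22 and 9.02, and Bag1, which inhibits the receptor, furthest above, at 7.52 and 7.73. Fkbp4, the relative of Fkbp5 that promotes receptor transport, was at 9.03 and 9.07, while Fkbp5 was 1.52-fold lower. Of 13 measured coregulators 12 were below Sham, against 52.4% of all genes, with a median of -0.17. All 13 lay at or above the median level, where 5295 of 9083 genes were below Sham and the median was -0.04. Past 0.32 on the log2 scale 2 of 13 were lower, against 8.65% of all genes, and none was past 1.5-fold. These 2 were the mediator subunit Med1, at 8.32 and 7.99, and the acetyltransferase Crebbp, at 8.09 and 7.76, followed by Med14 and Carm1, whereas Hdac2 was level at 7.56 and 7.57.

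Genes that make or convert steroids and those of the stress axis were mostly faint. Of 14 measured genes of steroid synthesis and metabolism 8 did not reach the background level on either array, against 5063 of all 18166 genes. Cyp11b1, Cyp11a1 and Akr1c14 were among these 8, and the other 6 of the list were above it on at least 1 array. Of those above it, Tspo, a cholesterol-binding protein of mitochondria that is also a marker of activated microglia, was at 5.04 in Sham and 5.52 in CCI, 1.40-fold higher, and Fdx1, which passes electrons to steroidogenic enzymes, was at 5.22 and 5.62, 1.32-fold higher. In the list of corticotropin-releasing hormone (CRH) and corticotropin (ACTH) genes 6 of 10 did not reach it on either array, including Ucn2, and Ucn3 was at 5.62 and 5.35. None of either list passed 1.5-fold.

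Effectors of Nr3c2 and Sgk1, among them sodium transporters, their regulators and substrates of the kinase, had a median difference of -0.04. Below Sham were 6 of 10, against 52.4% of all genes, and none was past 1.5-fold. Nedd4l, a ubiquitin ligase that Sgk1 inhibits, was 1.13-fold lower, at 8.17 and 7.99, and Ndrg1, a substrate of Sgk1, was 1.14-fold lower, at 10.32 and 10.13. Usp2 and Slc12a3 were lower by about as much. Scnn1g, a subunit of the epithelial sodium channel, was at 4.40 and 4.78, with the Sham value below the background level. The other steroid receptors Pgr, Esr1 and Esr2 were within 0.32 of Sham on the log2 scale.

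Close relatives of the targets were compared with them in direction. Of 23 measured relatives 15 were below Sham, against 52.4% of all genes, with a median of -0.10 and none past 1.5-fold. Klf11 (1.23-fold lower) and Klf2 (1.12-fold higher) were furthest apart among the Krüppel-like factors, with Klf9 between them. Tsc22d2 was 1.20-fold lower and Tsc22d1 1.04-fold higher, beside 1.14-fold lower for Tsc22d3. Sult2b1 (1.34-fold lower) came closest to Sult1a1 among the sulfotransferases, and Sgk2, at 5.68 in Sham and 5.52 in CCI, differed by less than Sgk1. Among the measured relatives, some lay further below Sham than the target itself for Klf9, Tsc22d3 and Per1, and none did for Zbtb16, Sult1a1, Sgk1 or Fkbp5. The relatives of Zbtb16, Zbtb7a and Zbtb20, were 1.11-fold and 1.13-fold lower.

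Per1 belongs to the circadian clock, and several genes of the clock were lower beside it. Of 18 other measured clock genes 14 were below Sham, with a median of -0.10. Below Sham were 52.4% of all genes and 5295 of the 9083 at or above the median level, where all 18 lay. Past 1.5-fold 1 of 18 was lower, against 1.14% of all genes. That gene was Ciart, a clock-controlled repressor, at 7.12 in Sham and 6.30 in CCI, 1.77-fold lower. Past 0.32 on the log2 scale, Ciart and Per2 were lower, or 2 of 18, against 8.65% of all genes. Higher past it was Nfil3, or 1 of 18, against 8.01%. Per2, at 6.09 and 5.60, was 1.40-fold lower. Short of 0.32, Nr1d1 was 1.24-fold lower and Csnk1d 1.23-fold. Per3 was 1.08-fold lower. In the other direction, Nfil3, which represses genes that Dbp activates, was at 5.90 and 6.24, 1.27-fold higher, and Bmal1, named after its value was seen and the activator that the Per proteins oppose, was at 7.06 and 7.17. The labels and methods do not state the hour at which the rats of each pool were sampled, and its part in these values was not tested.

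**Figure D4:**
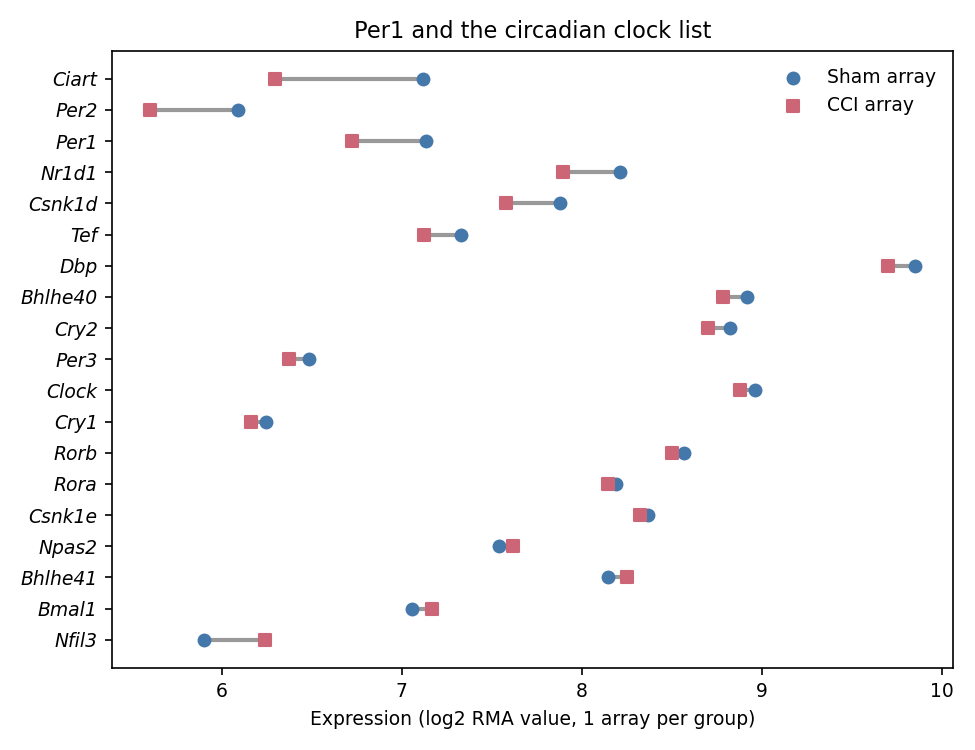
Expression of Per1 and 18 other clock genes on the Sham array (circles) and the CCI array (squares), as log2 RMA values on the horizontal axis, ordered by the difference. Ciart, Per2 and Per1 are furthest below Sham and Nfil3 furthest above.

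Immediate early genes, which handling and neuronal activity raise within minutes and which include Dusp1, lay on both sides of Sham. Of 19 measured genes 10 were below Sham and 9 above, with a median of -0.01. Lower past 1.5-fold were 3 of 19, Egr1 (2.16-fold), Dusp1 and Nr4a1 (1.73-fold), against 1.14% of all genes. Higher past it was 1 of 19, Atf3 (1.64-fold), a gene of injured neurons, against 1.64% of all genes. Heat shock genes had a median of -0.04 and none passed 1.5-fold. Past 0.32 on the log2 scale, 1 of 6 was lower and 1 of 6 higher, against 8.65% and 8.01% of all genes. These were Hsf1, at 6.96 in Sham and 6.54 in CCI, and Hspb1, at 7.22 and 7.63. The part of either list in the values of Per1 and Sgk1 was not tested.

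Markers of the cells in the tissue differed as well. The arrays carried strong signal for neurons (Snap25 at 13.09 and 12.98), oligodendrocytes (Mbp at 12.34 and 12.52) and astrocytes (Gfap at 11.21 and 11.57). Of 7 measured lymphocyte markers 4 did not reach the background level on either array, against 5063 of all 18166 genes. Among these 4 were Cd3e and Cd3g of T cells. The other 3 were above it on both, Cd79b of B cells at 4.46 in Sham and 4.96 in CCI, Cd79a at 4.76 and 4.88, and Cd8a, named after its value was seen, at 4.56 and 4.51. All 12 neuron markers were below Sham, against 52.4% of all genes, with a median of -0.21. These 12 lay at or above the median level, where 5295 of 9083 genes were below Sham and the median was -0.04. Lower past 1.5-fold was 1 of 12 (Gad1, which makes GABA), against 1.14% of all genes. The summed linear signal of the 12 in CCI was 0.88 of that in Sham. Of 9 endothelial and mural markers 6 were below, against 52.4% of all genes, with a median of -0.28 and a summed signal at 0.99 of Sham. Astrocyte and oligodendrocyte markers had medians of 0.08 and 0.09, and sums at 1.04 and 1.07. Below Sham were 4 of 9 and 3 of 9 of them, against 52.4% of all genes. Gfap was the only astrocyte marker past 0.32 on the log2 scale, or 1 of 9, against 8.01% of all genes higher past it. All 11 microglia and macrophage markers were above Sham, against 8649 of all 18166 genes, with a median of 0.77 and a sum at 1.98. Higher past 1.5-fold were 7 of 11, against 1.64% of all genes. None of these markers was listed at 0. The part of these shifts in the values of the 10 genes was not tested. Among the 12 neuron markers, Gad1 at -0.64 and Slc6a5, a glycine transporter, at -0.50 were furthest below Sham, and Snap25 at -0.10 was the least far below.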

How the data were processed

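The authors mixed the RNA of 3 rats per group, hybridised it to Affymetrix Rat Gene 2.0 ST arrays and deposited log2 expression values obtained by robust multi-array average (RMA) in R with Bioconductor, which corrects background, equalises the intensity distributions of the arrays and summarises probes into probe sets. RMA draws low values together and hides a shift shared by most genes. Values were used as deposited. Scanner files were not used here. Of 28879 probe sets, 18511 had exactly 1 gene in the platform annotation, 575 had several and 9793 had none, and the latter 2 kinds were left out. Symbols were updated by Entrez ID through RefSeq (GRCr8), where 18394 matched. The other 117 kept the platform's symbol, and the 18511 probe sets gave 18166 genes. For genes with several probe sets the one with the highest mean was taken. Coordinates are those of the RefSeq promoters, since no source used here names a build for the array.

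The measure was CCI minus Sham. With 1 array per group no test was possible, the P threshold of the study could not be applied, and precision is limited by the number of arrays. Genes past 1.5-fold were counted beside the share of all genes past it. The 10 genes and the 19 other lists (255 symbols, 220 measured) were chosen with earlier results of these data known. From each list, every gene past 1.5-fold, the genes furthest in the direction of the median up to 4, and the 1 gene furthest the other way could be named, together with relatives of the 10 genes. Other names are said in the text to be chosen after their values were seen, apart from H6pd, named for its role beside Hsd11b1. Alternatives were thresholds of 2-fold and of 0.32 on the log2 scale, a lowess trend of the difference on level subtracted (span 0.3), the median difference subtracted, the mean or the dimmest probe set per gene, and floors at the median level and at the chemosensory receptor background. Calculations were made with Python 3.11.15, pandas 2.3.3, numpy 2.4.6 and statsmodels 0.14.6. The code was run on simulated differences, narrower in spread than the measured ones, which checks the code and not the counts given here.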

Additional observations from a re-analysis of the deposited data

How the results depend on the processing

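Lower past the threshold were 2 of the 10 genes at 1.5-fold, 0 at 2-fold and 6 past 0.32 on the log2 scale. After the lowess trend was subtracted, which brought Fkbp5 to -0.55, 1 (Zbtb16) was lower past 1.5-fold. Of all genes, 1.14% were lower past 1.5-fold and 8.65% past 0.32 on the log2 scale. The shares of all genes at 2-fold and after the trend was subtracted were not counted. Of the 31 other targets, 4 were lower past 1.5-fold and 0 past 2-fold, and 3 of 29 without those on the clock or immediate early lists, a choice made after seeing the data. The other alternatives run changed neither count by more than 1.5 times nor the median of the 10 genes by 0.1 or more. All 10 passed both floors, which thus could not change their count or median. All 40 alternative values of single genes of the 10 lay within 0.1 of the deposited difference on the log2 scale. Only subtraction of the lowess trend could have moved them further, since the median difference subtracted was -0.01 for every gene. As each of the 10 has 1 probe set, the choice of probe set could not move them. Of 110 alternative list medians, 2 moved by more than 0.1, both with the floor at the median level. They moved to -0.09 for steroid synthesis over 2 genes and to -0.18 for the effectors of Nr3c2 and Sgk1 over 5. Many of the 110 could not have moved that far. The median difference subtracted was too small, and the choice of probe set could change only lists that hold genes with several probe sets. No paired analysis was possible because each group holds 1 array, and for the same reason no array could be left out. Low values are bounded only by the chemosensory receptor genes, as no detection calls were at hand.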
